A study of Mus musculus with 2 samples.

Results

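Kit, Epor, Csf2rb, Csf2rb2, Csf2ra, Il3ra, Jak2, Stat5a and Stat5b encode the stem cell factor receptor, the erythropoietin receptor, the chains of the IL-3 and GM-CSF receptors, and the kinase and transcription factors that act below them. These 9 genes were chosen by symbol, and all 9 were found among the 43346 annotated gene entries of both gene tables. The measurement was total RNA-seq (size class over 200 nt) of G1E cells in 2 biological replicates, each from 1 ng of RNA with spike-ins added. G1E, labelled Gata1-, is an immortalised line of mouse erythroid progenitors from strain C57BL/6J, male and postnatal. GATA1 is the transcription factor that drives erythroid maturation, so the line is a model of progenitors held before that step, and both libraries come from this 1 line. There was 1 group and no treated or control cells, so levels are given and one library is set against the other. The labels do not say whether the replicates were separate cultures, and the tests cover counting error, not spread between cultures.

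KIT is a receptor tyrosine kinase that binds stem cell factor and passes signals to PI3 kinase, SRC family kinases and the RAS pathway. The erythropoietin receptor and the beta chains of the IL-3 and GM-CSF receptors have no kinase of their own and use the bound Janus kinase JAK2, which phosphorylates the receptor and then STAT5A and STAT5B. In the erythroid lineage KIT supports early progenitors, and erythropoietin signalling supports the survival of later ones.

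The library of replicate 1 held 31649878 estimated counts and that of replicate 2 held 40597614. Nuclear protein-coding genes had 8513094 and 7669565 of these, and ribosomal RNA took 67.2% and 75.7%. A count of 0 allowed up to 0.0948 and 0.0739 CPM (counts scaled to a common library total, here for 3 counts), for counting error only. TPM (a level scaled for transcript length and library total) of the median detected gene was 1.55 times as high in replicate 1 as in replicate 2. This shift is part of each SD of TPM below, and of each TPM interval set against that of the other library. Because ribosomal RNA is in the TPM total, levels and the limit of 1 TPM depend on it: over nuclear protein-coding genes alone, Kit had 871 TPM in place of 145. Gata1 itself had 798 and 649 estimated counts, which do not show whether an intact transcript is made. All 10 erythroid markers were detected (at least 1 TPM in both libraries, here and below), led by Hba-a1 (176 ± 180.3 TPM, SD, n = 2), Rhag (109 ± 31.8 TPM) and Gfi1b (97.3 ± 35.9 TPM). The libraries stood apart in 3 genes of erythroid maturation. The anion exchanger gene Slc4a1, the globin gene Hba-a1 and the haem synthesis gene Alas2 were 101-, 8.54- and 8.29-fold higher in replicate 2, and Slc4a1 and Alas2 are named after their values were seen. The part of this difference in the results below was not tested.

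The transcripts of Kit came in 2 coding forms, shown here because their balance is the main result on Kit transcripts. The forms differ at the end of exon 9, where 12 bases (chr5:75639147-75639158, plus strand, GRCm38) are kept in Kit-201 and absent from Kit-204. These bases encode the 4 residues that give the forms their names, GNNK+ and GNNK-, in the extracellular part of the receptor near the membrane. The sequences run from the last 24 bases of exon 9 shared by both forms into the first 24 bases of exon 10, with the extra bases in capitals.
Kit-201: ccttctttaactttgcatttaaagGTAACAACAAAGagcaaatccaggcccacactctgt
Kit-204: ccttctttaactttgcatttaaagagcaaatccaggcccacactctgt

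Kit was by far the most abundant of the 9 genes. Kit (ENSMUSG00000005672.8, chr5:75574916-75656722, plus strand) had 175 TPM in replicate 1 and 114.55 TPM in replicate 2 (145 ± 42.7 TPM, SD, n = 2), from 17504 and 15356 counts. It ranked 142nd and 140th among 21461 nuclear protein-coding genes, and its 17504 and 15356 counts made up most of the 29866 and 26182 counts on all 9 genes. After TMM scaling, which removes the shift between the libraries, the ratio of replicate 2 over replicate 1 was 0.983 (95% counting interval 0.962 to 1.00). The nuclear protein-coding genes nearest to Kit in level over the 2 libraries, by distance on the log2(TPM + 1) scale, were Bnip3l (143 ± 40.8 TPM), Rpl38 (146 ± 41.0 TPM) and H2afz (144 ± 49.7 TPM), a likeness over 2 libraries only.

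The form without the extra bases was the larger share of coding Kit in both libraries. Kit-204 (GNNK-) had 94.5 TPM in replicate 1 (deposited credibility interval 81.8 to 100.5) and 60.99 TPM in replicate 2 (54.9 to 65.4). Kit-201 (GNNK+) had 65.1 TPM (53.9 to 72.7) and 39.97 TPM (32.9 to 43.3). Within each library the intervals of the forms did not overlap, and Kit-204 lay above Kit-201 both times. The GNNK- form thus made up 59.2% and 60.4% of the TPM of the coding forms (59.8% ± 0.846, SD, n = 2), a ratio to GNNK+ of 1.45 and 1.53. The annotated first exon of Kit-204 also starts 39 bases further upstream, so reads at either end of this difference could decide the split, and the shares are model estimates.

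Transcripts of Kit annotated with a retained intron held 8.77% and 11.9% of the gene's TPM but only 1.03% and 1.26% of its counts, because they are short. All 4 of them in the tables begin inside an intron and run into the next exons. Kit-205, which starts 139 bases before exon 14, was the largest with 8.51 and 6.35 TPM, and its intervals (6.54 to 10.2 and 4.89 to 7.77) overlapped. Kit-206, which starts 179 bases before exon 8, went from 6.88 to 35.5 estimated counts, or 0.77% and 4.57% of the gene, and its intervals (0.521 to 2.66 TPM and 3.51 to 7.07 TPM) did not overlap. Kit-202, starting 27 bases before exon 12, had the opposite order, with 2.09% and 0.77% of the gene (intervals 2.07 to 5.59 TPM and 0.312 to 1.87 TPM). It had 21.65 and 6.94 estimated counts. All these intervals are in unscaled TPM, so the shift between the libraries is part of the separation for Kit-202. Kit-203, starting 233 bases before exon 4, had 1.05% and 0.98%. The tables cannot tell whether such reads came from a spliced product that kept the intron or from unspliced RNA, which total RNA also contains.

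**Figure D1:**
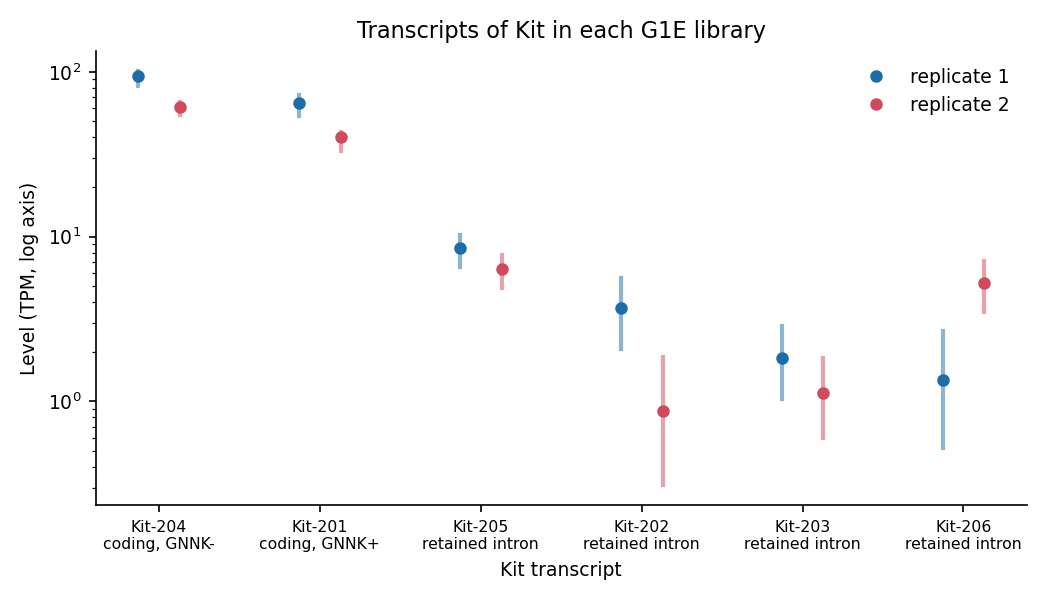
Level of each Kit transcript in TPM (log axis) in replicate 1 (blue) and replicate 2 (red) of G1E, with points for the deposited maximum-likelihood estimate and bars for the deposited credibility interval. Kit-204 and Kit-201 lie between 39.97 and 94.5 TPM and the retained-intron transcripts between 0.88 and 8.51 TPM. Kit-206 is the only one higher in replicate 2 in these unscaled levels. As a share of the gene Kit-205 was higher there too (4.86% and 5.54%).

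Genes of mast cells, another lineage that carries KIT and the IL-3 receptor, were measured beside Kit. Over all 12 mast cell and basophil markers the summed level was 99.8 TPM in replicate 1 and 56.0 TPM in replicate 2. Of the 12 markers 4 were detected. These were the protease gene Cpa3 (51.4 and 24.8 TPM), the IL-33 receptor gene Il1rl1 (40.8 and 26.3 TPM), the histamine synthesis gene Hdc (3.74 and 2.88 TPM) and Mcpt1 (66 and 46 counts, named after its values were seen). The protease genes Cma1, Mcpt4, Mcpt8 and Prss34 had 0 counts in both libraries. The IgE receptor chains Fcer1a and Ms4a2 had 0 and 2 counts and 8 and 10 counts, and the tryptase genes Tpsab1 and Tpsb2 had 0 and 3 counts and 3 and 0 counts. The part of these genes in the level of Kit was not tested. Of the other marker lists, 0 of 7 lymphocyte and 0 of 7 stem and multipotent progenitor markers were detected, with at most 3 and 4 counts on any (Cd34). Of 12 granulocyte and macrophage markers 0 were detected, and the highest were Cd68 (17 and 1 counts), S100a8 (4 and 0) and Adgre1 (1 and 15). Of 8 megakaryocyte markers 3 were detected, namely Pf4 (11.3 ± 2.11 TPM, SD, n = 2), Itga2b (5.75 ± 2.95 TPM) and Ppbp (2.35 ± 1.51 TPM).

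Epor was expressed far below Kit. Epor (ENSMUSG00000006235.5, chr9:21958897-21963506, minus strand) had 6.21 TPM in replicate 1 and 5.30 TPM in replicate 2 (5.76 ± 0.643 TPM, SD, n = 2), from 226 and 266 counts. On the log2(TPM + 1) scale Kit exceeded Epor by 4.61 and 4.20 (4.40 ± 0.29, SD, n = 2). In plain TPM Kit was 28.2- and 21.6-fold above Epor. In level Epor stood at the 35.8th and 44.7th percentile of the 8345 nuclear protein-coding genes detected in both libraries, whereas Kit stood at the 98.3rd in both. Its ratio of replicate 2 over replicate 1 after TMM scaling was 1.32 (95% interval 1.10 to 1.58), with an adjusted p of 0.0108 in an exact binomial test of the libraries over all genes, but below the 2-fold limit for a call. The nuclear protein-coding genes nearest to Epor in level over the 2 libraries were Tfb2m (5.80 ± 0.658 TPM), Thap4 (5.80 ± 0.735 TPM) and B4galt1 (5.78 ± 0.757 TPM).

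The promoter of Epor is shown because erythropoietin receptor transcripts were present in cells labelled as lacking Gata1, and GATA motifs are the binding motifs of that factor and of GATA2. The 250 bases before the RefSeq start of Epor (chr9:21963577-21963826, minus strand, GRCm38.p6), printed in the direction of transcription, held 1 match to a GATA motif from position -54 and 1 to a GC box from position -26, both in capitals.
Epor: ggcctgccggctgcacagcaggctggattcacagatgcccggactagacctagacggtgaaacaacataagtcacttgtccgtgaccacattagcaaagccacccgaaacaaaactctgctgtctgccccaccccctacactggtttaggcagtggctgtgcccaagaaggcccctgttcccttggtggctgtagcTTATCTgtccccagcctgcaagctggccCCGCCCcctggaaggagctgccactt

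Motifs were searched on both strands in these windows. The forms searched for the GATA factors were AGATAA, then the form AGATAG, then those beginning with T, which are TGATAA and also the form TGATAG. The GC box was searched as GGGCGG and the motif of the STAT factors as TTCNNNGAA, and none of these forms contains another. Of the 9 genes 8 had RefSeq starts (11 in all, and the 2 starts of Kit overlap), and Csf2rb had none in the table used. A GATA motif was found before 3 of 11 starts (27.3%), those of Epor, Csf2rb2 and Il3ra, against 26.5% of 32851 starts of all genes. The GC box was found before 8 of 11 (72.7%) against 32.7%, and the STAT motif before 1 of 11, that of Csf2rb2, against 7.02%. The starts of all genes were not limited to genes detected here, whereas most of the 9 were detected, so the sets are not matched in level. A match describes the letters of this window and not a bound site.

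**Figure D2:**
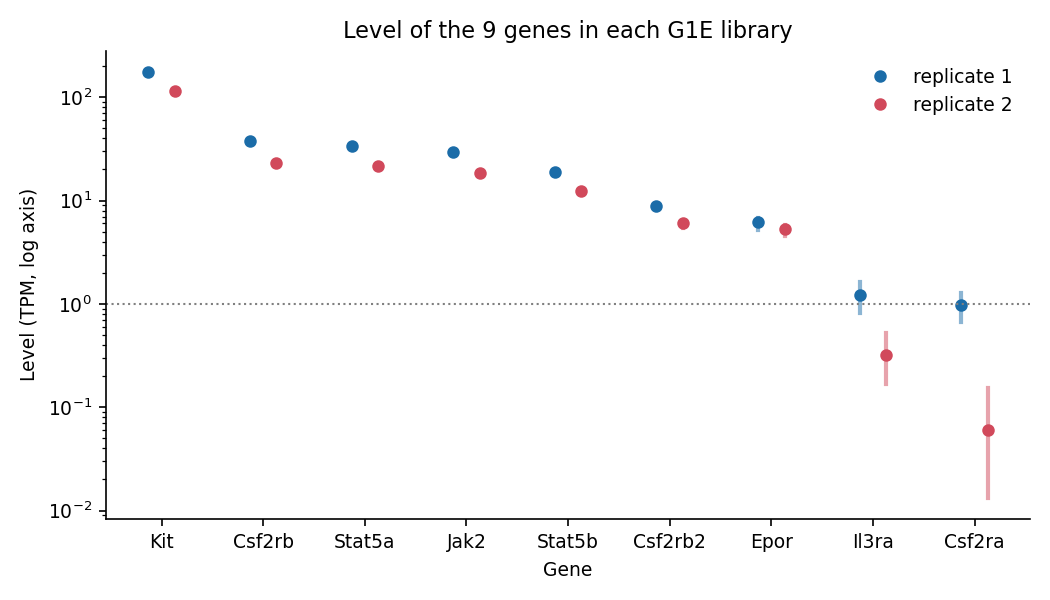
Level of the 9 genes in TPM (log axis) in replicate 1 (blue) and replicate 2 (red) of G1E, with points for the deposited estimate, bars for the deposited credibility interval and a dotted line at 1 TPM. Kit lies above 100 TPM in both libraries, and Il3ra and Csf2ra reach at most 1.22 TPM.

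The beta chains of the IL-3 and GM-CSF receptors were expressed at middle to high levels. Csf2rb, the chain shared by the receptors for IL-3, IL-5 and GM-CSF (ENSMUSG00000071713.4, chr15:78325752-78353847, plus strand), had 37.3 TPM in replicate 1 and 22.8 TPM in replicate 2 (30.0 ± 10.2 TPM, SD, n = 2). Csf2rb2, a mouse chain that serves the IL-3 receptor alone (ENSMUSG00000071714.5, chr15:78282507-78305721, minus strand), had 8.92 and 6.06 TPM (7.49 ± 2.02 TPM). In both libraries Csf2rb exceeded Csf2rb2, with 80.7% and 79.0% of their summed TPM (79.9% ± 1.19, SD, n = 2). Their ratios of replicate 2 over replicate 1 were 0.949 (95% interval 0.905 to 0.996) and 1.05 (0.956 to 1.16), close to the median of all genes.

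The pair is close in sequence, so its split depends in part on how shared reads were divided. Over 2628 aligned coding bases the transcripts of Csf2rb and Csf2rb2 were 95.2% identical, with a longest identical run of 242 bases. Of all 100-base windows, 7.16% of those in Csf2rb also occurred in Csf2rb2 and 7.20% the other way round. Their estimated counts, 3676.42 and 3113.46 for Csf2rb and 850.58 and 799.54 for Csf2rb2, were not whole, as is the case where reads are shared out. The first 90 coding bases are shown to let the likeness be seen, with the 3 bases that differ in capitals.
Csf2rb: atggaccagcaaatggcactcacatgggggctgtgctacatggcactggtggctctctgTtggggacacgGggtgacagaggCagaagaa
Csf2rb2: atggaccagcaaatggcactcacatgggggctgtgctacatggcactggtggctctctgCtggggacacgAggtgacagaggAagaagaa

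The alpha chains that bind IL-3 and GM-CSF were the lowest of the 9 genes, near or below 1 TPM. With TPM taken over nuclear protein-coding genes alone, the means were 4.24 TPM for Il3ra and 2.65 TPM for Csf2ra. On that scale 8 members in place of 7 were at 1 TPM or more in both libraries. Il3ra, the IL-3 binding chain (ENSMUSG00000068758.7, chr14:14346275-14356011, plus strand), had 33 counts and 1.22 TPM in replicate 1 and 12 counts and 0.32 TPM in replicate 2. Csf2ra, the GM-CSF binding chain (ENSMUSG00000059326.6, chr19:61223957-61228429, minus strand), had 36 counts and 0.98 TPM against 3 counts and 0.06 TPM. Both were lower in replicate 2, and the deposited credibility intervals did not overlap between the libraries (0.814 to 1.62 and 0.168 to 0.528 TPM for Il3ra, 0.665 to 1.28 and 0.0134 to 0.153 TPM for Csf2ra). These intervals are in unscaled TPM, which was 1.55 times as high in replicate 1 for the median detected gene. The intervals of Kit and Csf2rb did not overlap between the libraries either. Il5ra, the third partner of the shared chain, was named after its values were seen and had 2.73 and 1.42 TPM from 92 and 66 counts.

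Csf2ra and Il3ra were the only members of the 9 that passed the comparison of the libraries. A gene passed at an adjusted p under 0.05 (exact binomial test, Benjamini-Hochberg over 11902 genes) and at least a 2-fold ratio, and this test compares a pair of libraries, not conditions. The ratio of replicate 2 over replicate 1 was 0.0934 for Csf2ra (95% interval 0.0184 to 0.296, adjusted p = 1.75e-06) and 0.408 for Il3ra (0.192 to 0.810, adjusted p = 0.0247). Among all genes tested 2.22% passed as higher in replicate 1, 5.08% as higher in replicate 2 and 7.3% in either direction, against 2, 0 and 2 of the 9 members. In bulk RNA, fewer cells that carry a transcript and less of it per cell cannot be told apart. The Il3ra call ended in a negative binomial exact test with a dispersion estimated from these same libraries, whereas that of Csf2ra was still made.

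**Figure D3:**
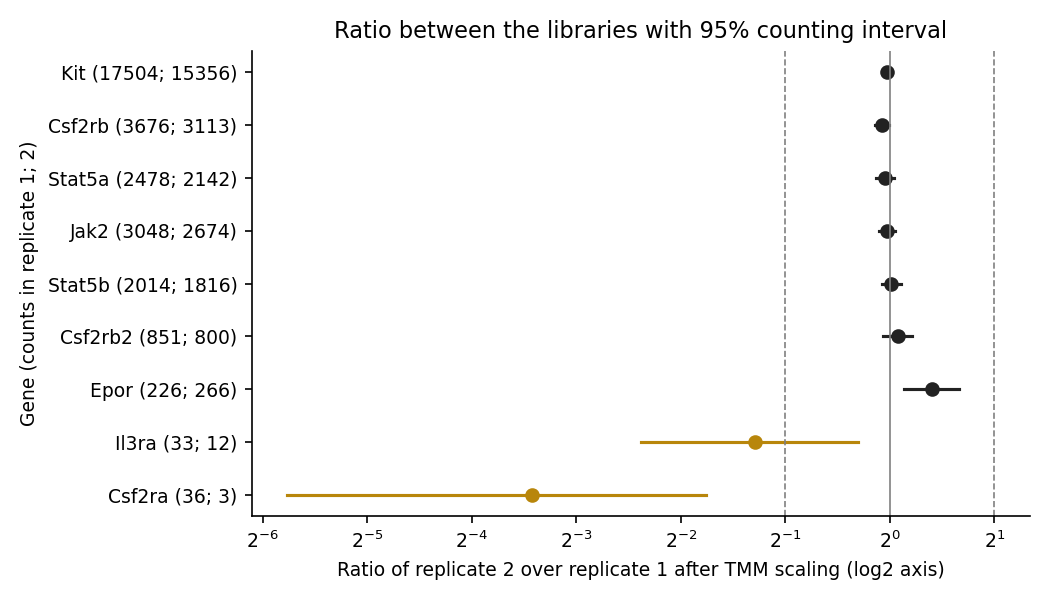
Ratio of replicate 2 over replicate 1 for the 9 genes after TMM scaling (log2 axis), with bars for the exact 95% counting interval, dashed lines at the 2-fold limits and the rounded counts of both libraries beside each name. The other 7 points lie between 0.949 and 1.32, and the gold points of Il3ra (0.408) and Csf2ra (0.0934) passed the test.

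The kinase and the STAT5 factors were detected, Stat5a and Jak2 at levels near that of Csf2rb and Stat5b below them. Jak2 (ENSMUSG00000024789.8, chr19:29251828-29313080, plus strand) had 29.5 TPM in replicate 1 and 18.6 TPM in replicate 2 (24.04 ± 7.74 TPM, SD, n = 2). Stat5a (ENSMUSG00000004043.10, chr11:100859351-100885169, plus strand) had 33.7 and 21.7 TPM (27.7 ± 8.48 TPM), and Stat5b (ENSMUSG00000020919.7, chr11:100780731-100850724, minus strand) had 19.1 and 12.5 TPM (15.8 ± 4.67 TPM). All 3 were higher in replicate 1 in TPM, but the TMM-scaled ratio (replicate 2 over replicate 1) was 0.983 for Jak2 (95% interval 0.933 to 1.04), 0.969 for Stat5a (0.914 to 1.03) and 1.01 for Stat5b (0.948 to 1.08).

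Stat5a was the larger share of the STAT5 pair, with 63.9% and 63.5% of their summed TPM (63.7% ± 0.247, SD, n = 2). The factors are close paralogs, 90.7% identical over 2343 aligned coding bases of their main transcripts. Their longest identical run was 324 bases, and their estimated counts were likewise not whole (2477.66 and 2142.45 for Stat5a, 2014.34 and 1815.55 for Stat5b). The last 72 bases of Stat5a overlap Stat3 on the opposite strand, and use of strand in the counting was not given in the sources used here.

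In the order of levels most neighbours were apart in both libraries. Kit was 4.69- and 5.02-fold above Csf2rb. Csf2rb and Stat5a were closest, 1.11- and 1.05-fold apart, and their credibility intervals overlapped in replicate 2. Stat5a exceeded Jak2 1.14- and 1.17-fold, Jak2 exceeded Stat5b 1.55- and 1.49-fold, and Stat5b exceeded Csf2rb2 2.14- and 2.06-fold, with no overlap of intervals. Csf2rb2 and Epor were 1.44- and 1.14-fold apart with overlapping intervals in replicate 2, so their order was not settled in that library. Il3ra and Csf2ra were both under Epor, and their intervals overlapped in replicate 1.

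The libraries differed in which Jak2 transcript the reads were assigned to. The transcript without an extra early exon (ENSMUST00000025705.6) had 16.2 TPM in replicate 1 (credibility interval 12.8 to 19.1) and 2.02 TPM in replicate 2 (0.0576 to 3.70), or 55.0% and 10.9% of the gene, and these intervals did not overlap. The transcript with that exon (ENSMUST00000065796.5) had 13.3 TPM (9.58 to 15.7) and 16.6 TPM (14.1 to 18.1), or 45.0% and 89.1%, with overlapping intervals. These intervals are in unscaled TPM, so their overlap does not show that this transcript was unchanged. In estimated counts it went from 1385 to 2388 and the other from 1663 to 286, while the TMM-scaled ratio of the whole gene was 0.983. These transcripts have the same 3396 coding bases and differ by a single exon of 83 bases in front of the coding part (chr19:29252437-29252519), which only the second has. The shift of 44.1 percentage points was reached by 7 of 1454 nuclear protein-coding genes with at least 1000 counts in both libraries and at least 2 transcripts, Jak2 included. The median largest shift over those genes was 8.45 points, and 9.35% of them moved by 20 points or more, a threshold set after the values were seen.

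Transcript shares of Stat5b, Stat5a and Kit moved less. Stat5b-201 and Stat5b-202, which have different first exons and the same 2358 coding bases, held 78.3% and 91.3% (Stat5b-201) and 21.7% and 8.73% (Stat5b-202), a shift of 12.99 points. Stat5a-202 held 84.9% and 83.8% of Stat5a, and the largest shift of any Stat5a transcript was 2.83 points. The largest shift for Kit was 3.80 points, that of Kit-206. Epor, Csf2rb, Csf2rb2, Csf2ra and Il3ra had 1 transcript each in the tables.

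**Figure D4:**
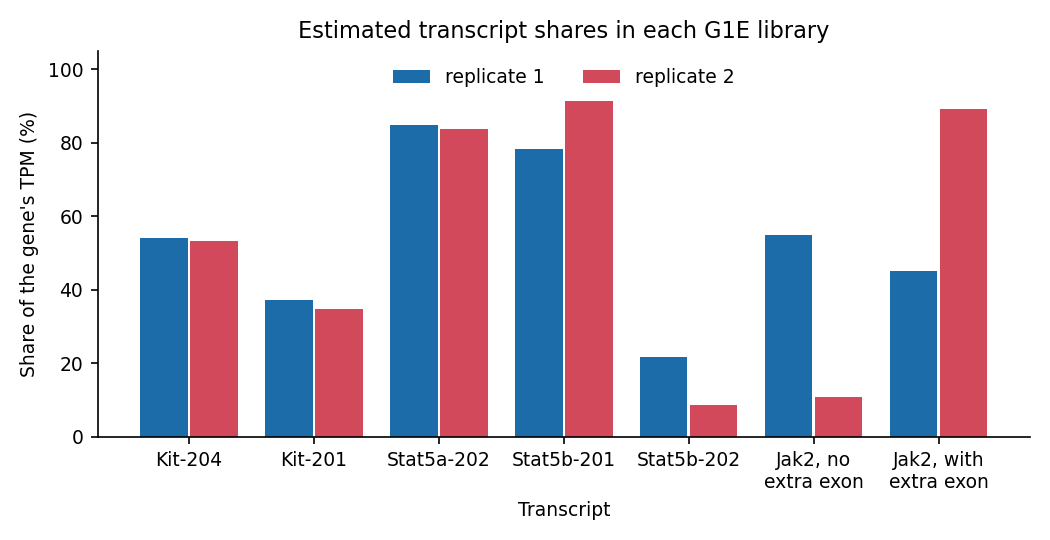
Estimated share of the gene's TPM (percent, from 0) on the main transcripts of Kit, Stat5a, Stat5b and Jak2 in replicate 1 (blue) and replicate 2 (red) of G1E. The shares of Kit-204 (54.0% and 53.3%) are close in the libraries, while that of the Jak2 transcript without the extra exon goes from 55.0% to 10.9%.

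Genes from a list of ligands of these and other receptors were hardly found in the cells themselves. Of 11 measured ligand genes 10 had 0 counts in both libraries, among them Kitl (stem cell factor), Epo, Il3 and Csf2 (GM-CSF). The exception was Osm, the cytokine oncostatin M and a STAT5 target, with 1.51 and 1.07 TPM. Among 25 class I cytokine receptors 7 were detected, and beside Csf2rb, Csf2rb2 and Epor these were led by Il6st (2.82 ± 0.120 TPM, SD, n = 2), Il4ra (2.69 ± 0.969 TPM) and Il2rg (2.47 ± 0.0707 TPM). Il9r, with 40 and 17 counts, passed as higher in replicate 1 beside Csf2ra and Il3ra (ratio 0.476, 95% interval 0.253 to 0.860), so 3 of 12 tested receptors of this class did, the others being members given above, and 0 passed in the other direction (2.22% and 5.08% of all genes). In the negative binomial test the Il9r call ended, like that of Il3ra.

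Of 11 receptor tyrosine kinases Kit alone was detected at 1 TPM in both libraries. Its relatives Flt3, Csf1r and Pdgfrb had 0 counts. Igf1r, the IGF1 receptor, had 1.10 and 0.92 TPM. Insr, the insulin receptor, had 0 and 76 counts and was at least 28.4-fold higher in replicate 2 when replicate 1 is set to 3 counts and the other count is taken as exact, while the 95% counting interval of the ratio began at 22.5. Pdgfra had 11 and 0 counts, at least 3.27-fold higher in replicate 1 by the same rule, with a ratio of replicate 2 over replicate 1 of up to 0.447 in its interval. Both, out of 4 tested, passed the test at levels of at most 0.28 TPM (7.3% of all genes passed in either direction). The Pdgfra call ended in the negative binomial test.

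All 4 Janus kinases and 6 of 7 STAT genes were detected, and 0 of 4 and 0 of 6 tested passed the comparison (7.3% of all genes did in either direction). Without the fold limit, 1 of 4 and 1 of 6 had an adjusted p under 0.05 (exact binomial test, 32.4% of all genes). Jak1 followed Jak2 with 19.2 ± 2.74 TPM (SD, n = 2), ahead of Jak3 (5.34 ± 1.90 TPM) and Tyk2 (1.72 ± 0.445 TPM). Beside the STAT5 pair, Stat3 had 14.6 ± 5.20 TPM and Stat6 had 8.70 ± 3.94 TPM, and Stat4 had 2 and 0 counts.

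Genes that carry the receptor signal onward were mostly present, and 0 of those tested passed with the 2-fold limit (7.3% of all genes did in either direction). With no fold limit 32.4% of all genes passed, and 8 of 26 adaptors and kinases, 9 of 15 RAS and MAP kinase genes and 6 of 10 AKT, mTOR and FOXO genes had an adjusted p under 0.05 in the exact binomial test. The largest such ratios of replicate 2 over replicate 1 were 1.65 for the adaptor Shc1 and 1.54 for the kinase Map2k2, both named after their values were seen, and 1.43 for Foxo3. Of 29 adaptors and kinases 23 were detected and 0 of 26 tested passed, led by the adaptor Grb2 (39.5 ± 13.3 TPM, SD, n = 2), the RAS exchange factor Sos2 (23.99 ± 10.6 TPM) and the PI3 kinase subunit Pik3r1 (20.6 ± 0.834 TPM). Src, Syk and Plcg2 had 0 counts, while the SRC family kinase Fyn had 19.07 and 13.59 TPM and Lyn had 6.90 and 5.35 TPM. These genes were all named after their values were seen. Of 17 RAS and MAP kinase genes 15 were detected and 0 of 15 tested passed, among them the RAS GTPase activator Rasa1 (51.0 ± 17.9 TPM) and the RAF kinase gene Araf (30.7 ± 7.52 TPM). Dusp6 and Spry2, feedback inhibitors of that pathway also named after their values were seen, had 0 counts. Of 12 AKT, mTOR and FOXO genes 10 were detected and 0 of 10 passed, led by Akt1 (26.9 ± 6.26 TPM), Gsk3b (18.0 ± 7.66 TPM) and Foxo3 (13.6 ± 0.537 TPM).

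Negative regulators and targets of STAT5 were also found. Of 22 negative regulators 19 were detected, led by Socs2 (34.5 ± 10.6 TPM, SD, n = 2) and the phosphatase gene Inpp5d (32.1 ± 10.1 TPM). Cish, an inhibitor that STAT5 induces, had 22.3 and 14.2 TPM, and Ptprc, the leukocyte phosphatase CD45, had 1 and 0 counts, both named after their values were seen. Socs3, with 14 and 0 counts, was the only one of 21 tested to pass, at least 4.16-fold higher in replicate 1 with replicate 2 set to 3 counts (ratio up to 0.338 in its 95% interval), and this call ended in the negative binomial test. Of 14 STAT5 targets 12 were detected, led by Tfrc (75.9 ± 12.6 TPM), Ccnd2 (57.4 ± 19.5 TPM) and Mcl1 (53.7 ± 20.9 TPM), and Socs3 was again the only one of 14 to pass. Beside both lists, 2.22% of all genes passed as higher in replicate 1 and 7.3% in either direction. Without the fold limit 8 of 21 negative regulators and 6 of 14 STAT5 targets had an adjusted p under 0.05 (exact binomial test). Among all genes 32.4% did. Bcl2l1, the survival gene of BCL-XL, named after its values were seen, had 363 and 488 counts. Its ratio of 1.51 (adjusted p = 5.06e-08, exact binomial test) was below the 2-fold limit.

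Over all these lists, 88 of 138 distinct genes other than the 9 were detected and 34 had 0 counts in both libraries. Of 99 tested, 1 was higher in replicate 2 and 3 in replicate 1, or 4.04% in either direction against 7.3% of all genes. On the log2 scale their median ratio (replicate 2 over replicate 1) was -0.02, as was that of the 9 members, against 0.00 for all genes tested.

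**Figure D5:**
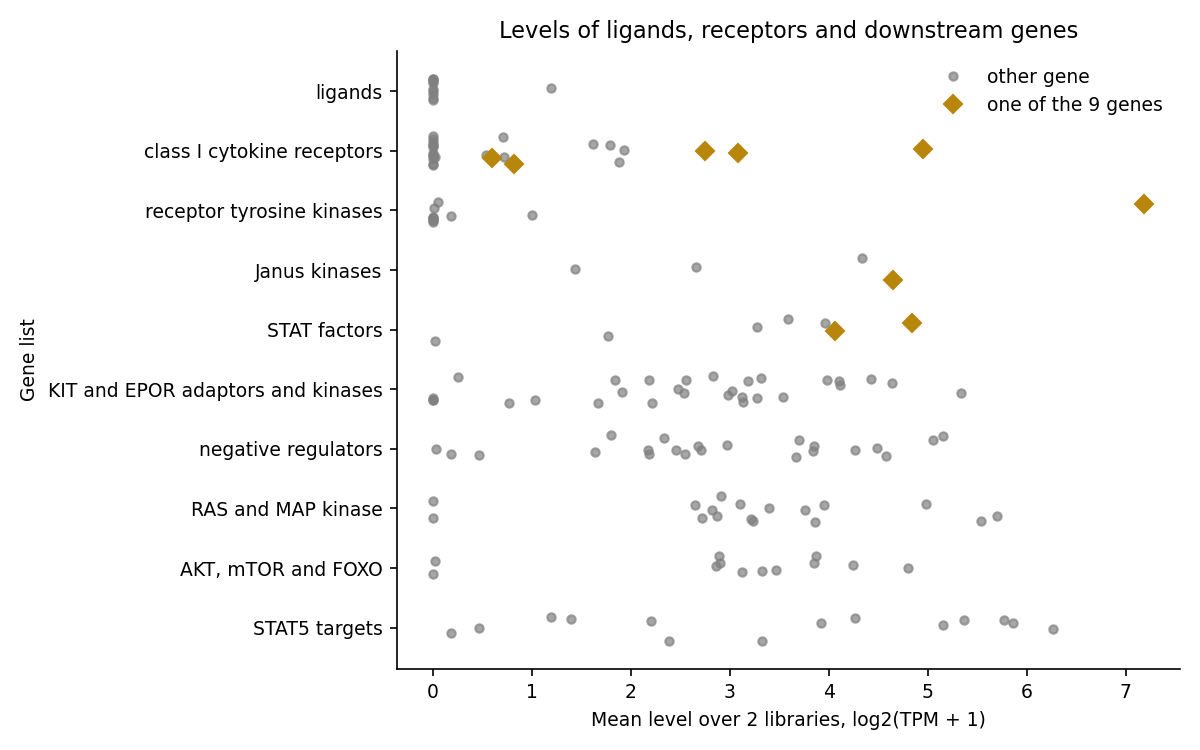
Mean level over the 2 libraries as log2(TPM + 1) for every measured gene of 10 lists, with gold diamonds for the 9 genes and grey points for the others, spread vertically only to separate them. Kit is the rightmost point of the whole plot, and all but 1 of the ligands sit at 0.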

How the data were processed

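For each library the authors deposited a gene and a transcript table. Per the file headers, these hold estimated counts (expected counts, not normalised), TPM as maximum-likelihood and posterior mean estimates, FPKM scaled to length and library size, each transcript's percent of its gene, and other columns with bounds of a TPM credibility interval. Those deposited bounds surround the posterior mean, so a maximum-likelihood value can lie just outside (Kit and Csf2rb in replicate 1). The deposited file records name assembly mm10 and annotation M4. Aligner and quantifier were not given in the sources used here.

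Names, positions, exons and transcript sequences came from GENCODE M21 on GRCm38, matched on identifiers without version (42462 of 43346 genes). The transcripts printed or aligned have the same length there as in the tables, except that of Csf2rb2. Promoters came from RefSeq (GRCm38.p6). Entries named by a number (26248) and 97 spike-in entries were not tested. Of the listed genes 1, Flt3l, was not analysed here.

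Levels are TPM with mean and SD over 2 libraries. The libraries were compared per gene by a two-sided exact binomial test on counts rounded to whole numbers, against TMM effective library sizes (edgeR 4.0.16, R 4.3.3), for genes with at least 10 counts over both. Intervals are exact 95% Clopper-Pearson and cover counting error only, not that of amplification from 1 ng of RNA. On simulated counts of these libraries, 54% of 50 genes changed 2-fold, 98% of 50 changed 3-fold, and 1 of 11706 unchanged genes were called. The simulated counts held Poisson counting error only, which is what the test assumes, so these rates do not cover other spread between libraries. The changed genes were drawn from genes with more counts than Csf2ra and Il3ra, so the rates do not describe those calls. SciPy 1.17.1, Biopython 1.88 and DESeq2 1.42.0 were also used. Alternatives were other scalings, no count filter, no fold limit, a negative binomial test, FPKM, posterior mean TPM, counts, another pseudocount and single libraries.

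The members and lists were chosen with earlier results of these data known. Named were all members, the 3 highest genes above 0 and every gene that passed of each pathway list, the 3 highest above 0 of each marker list, the 3 genes nearest to Kit and Epor, Kit transcripts of at least 1% and the main transcript of the others. Some genes that the rule selects are not reported here.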

Additional observations from a re-analysis of the deposited data

How the results depend on the processing

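With 2 libraries of 1 line, tests and intervals cover counting error, and no replicate spread could be set against the differences. A scaling moves every gene by the same factor and so leaves the order of ratios as it was. Scaled to total counts, the median log2 ratio of all genes was -0.52 and ratios of replicate 2 over replicate 1 were therefore below 1 for Stat5b (0.703), Csf2rb2 (0.733) and Epor (0.918). With that scaling 5 of 99 pathway genes were called higher in replicate 1, against 1021 of all 11902 genes tested. Scaled to spike-ins (median -4.50), the same ratios were 0.0448, 0.0467 and 0.0584. All 9 members and 98 of 99 pathway genes were then called higher in replicate 1, as were 11608 of the 11902 genes. In replicate 2 it was 0 pathway genes, against 36 of all genes. The negative binomial test called 1 member and 0 pathway genes higher in replicate 1 (33 of all genes). Without the fold limit 1 member (Epor) was called higher in replicate 2, with 18 pathway genes there and 24 in replicate 1 (2045 and 1807 of all genes). From counts without length, the Kit level over Epor was 6.06 on the log2 scale and the Stat5a share 54.6%, since transcript length then adds to the value. DESeq2 size factors, the protein-coding sum and no filter on counts gave the same number of member calls. With a library left out, Kit over Epor ran from 4.20 to 4.61, the Stat5a share from 63.5% to 63.9%, the Csf2rb share from 79.0% to 80.7%, the GNNK- share from 59.2% to 60.4%, and 7 to 8 members reached 1 TPM against 7 in both. No paired analysis was possible because there was 1 group. Values for Il3ra and Csf2ra rest on at most 36 counts.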
